A study of Mus musculus with 4 samples.

Results

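De novo lipogenesis, the making of fatty acids from sugar-derived carbon, was followed here through 10 genes chosen by name: Acly, Acss2, Acaca, Acacb, Fasn, Elovl6, Scd1, Me1, Mid1ip1 and Thrsp. They are 10 of the 22180 named genes in the data, and all 10 had at least 1 probe set (a group of array probes summarised as 1 value) assigned to that gene alone. The samples were primary hepatocytes of 2-month-old male mice, lacking Chrebp (labelled Chrebp-KO, here KO) or wild type (WT), cultured in serum-free medium for 16 h, either with 25 mM fructose or with none added (control). The 4 groups were KO fructose, KO control, WT fructose and WT control, with 1 array each. The labels do not give the strain, the part of Chrebp that was deleted, whether the deletion was restricted to hepatocytes, or how many mice stood behind an array. The extraction label names liver RNA although the other labels name isolated hepatocytes.

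In hepatocytes, surplus sugar is broken down to citrate, which leaves the mitochondria and is split to acetyl-CoA in the cytosol. Acetyl-CoA carboxylase turns acetyl-CoA into malonyl-CoA, fatty acid synthase joins these units into palmitate with the help of NADPH, and palmitate is then lengthened and desaturated. ChREBP, encoded by Mlxipl, is a sugar-sensing transcription factor that pairs with MLX and drives many of these genes, alongside the insulin-responsive factor SREBP-1c, encoded by Srebf1.

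Values are log2 levels per gene, normalised by the authors across the arrays, so a difference of 1 is a 2-fold difference. A level is comparable between arrays for the same gene and not between genes. Because each group had a single array, replicate spread could not be measured, and no difference below has a test, an error or a p-value, and the order of neighbouring levels cannot be judged. A gene was counted as detected above a log2 level of 4.764, set from olfactory receptor genes, and between 10368 and 10447 genes passed it on each array. All 10 lipogenic genes were detected on all 4 arrays.

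Mlxipl itself had log2 levels of 7.37 in KO fructose and 7.42 in KO control, against 8.43 in WT fructose and 8.08 in WT control. It was lower in KO in both media and above background on every array, and the probe set may lie outside the deleted part, so it is a limited check of the genotype. Of 13 measured hepatocyte markers, 13 were above background on each array, and 2 were at least 2-fold higher with fructose in both genotypes. These were Tat, 4.02-fold in KO and 4.65-fold in WT, and Cps1, 2.63-fold in KO and 2.65-fold in WT. Hnf4a differed by -0.50 (log2) in KO and -0.75 in WT, and the median of the 13 was 0.08 in KO and 0.02 in WT. Of 6 measured adipocyte markers, Adipoq, Plin1 and Lep lay below background on all 4 arrays, with a highest log2 level of 4.30, and Retn passed it on WT fructose alone. Cidec and Fabp4, which lipid-loaded hepatocytes also express, were detected on all 4 arrays, and both were above 0 with fructose in KO and in WT. In fructose medium both were below 0 for KO minus WT (Cidec -0.90, Fabp4 -1.02). Because Retn was detected through WT fructose alone, the filter fixed the sign of its differences from that array, and it is not counted. Cidec differed with fructose by 1.96 in KO and 2.72 in WT and Fabp4 by 0.83 in KO and 1.98 in WT. The relation of these hepatocyte and adipocyte markers to the lipogenic differences was not tested.

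In WT hepatocytes, 4 of the 10 lipogenic genes were at least 2-fold higher with fructose and 0 were lower. In KO hepatocytes 0 of 10 were at least 2-fold higher and 0 lower. By gene averages, Acaca, Acly and Fasn had the largest WT differences, 3.54-fold, 3.50-fold and 3.39-fold, although the brightest of 3 Mid1ip1 probe sets gave 3.72-fold. Among all detected genes, 3.1% were at least 2-fold higher with fructose in WT and 3.01% lower, and 1.68% were higher and 1.18% lower in KO. The median log2 difference of the 10 genes was 0.11 in KO and 0.88 in WT, against -0.0041 in KO and -0.03 in WT over all detected genes.

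**Figure D1:**
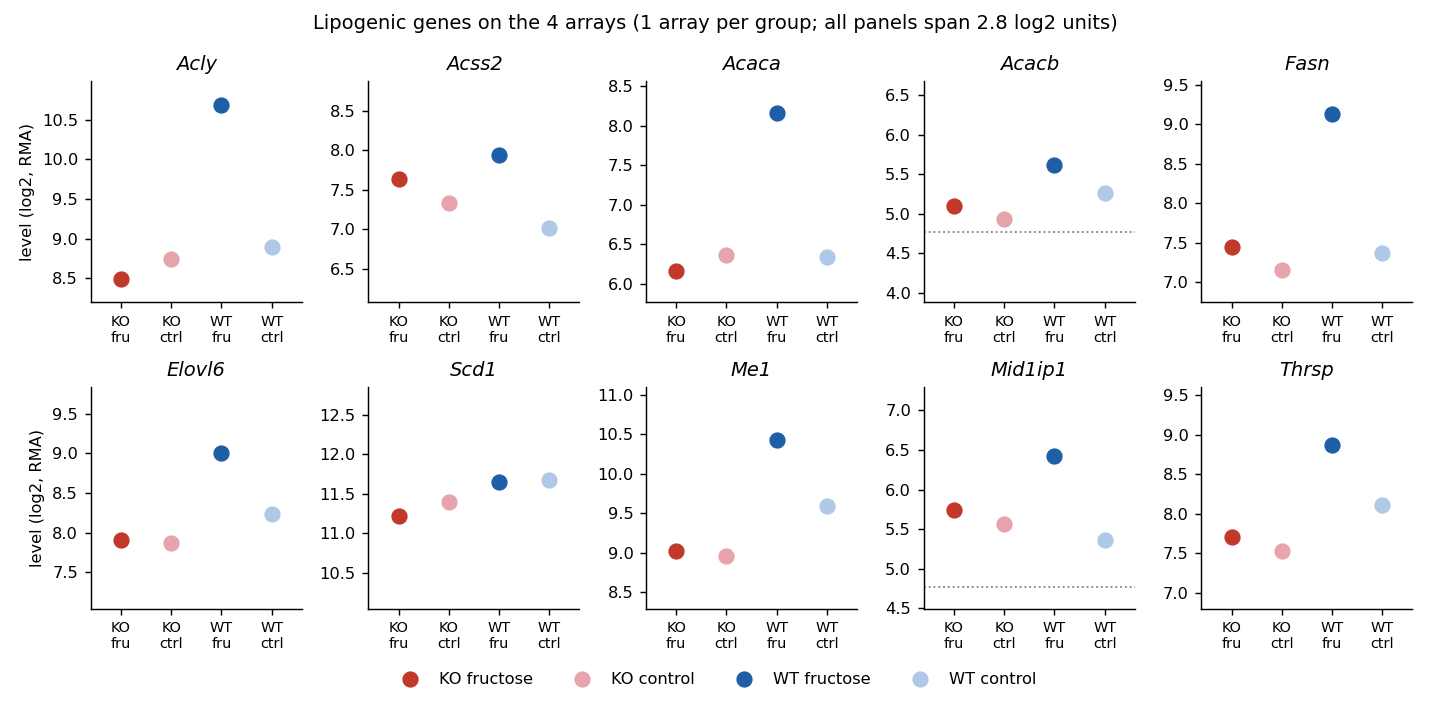
Log2 level of each of the 10 lipogenic genes (vertical axis) on the KO fructose, KO control, WT fructose and WT control arrays (horizontal axis), 1 point per array. Every panel spans the same number of log2 units and the dotted line is the background level of 4.764; WT fructose is the highest array for 9 of the 10 genes, Scd1 being the exception.

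The WT fructose array was the highest of the 4 for 9 of the 10 genes. For Scd1 it was WT control. The lowest array was a KO array for 8 of 10, KO control for 5 and KO fructose for 3, and it was WT control for Acss2 and, with its probe sets averaged, for Mid1ip1. The full order WT fructose, WT control, KO fructose, KO control was shared by 4 genes, Acacb, Elovl6, Me1 and Thrsp. How often each array was highest or lowest among all detected genes was not counted, so these counts are not set against them.

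Among the enzymes that supply acetyl-CoA, Acly encodes ATP-citrate lyase, which splits cytosolic citrate. Its log2 level was 8.49 in KO fructose and 8.74 in KO control, against 10.69 in WT fructose and 8.89 in WT control. The WT fructose array stood alone, and the other 3 lay within a narrow band. The fructose difference was -0.25 in KO and 1.81 in WT, where Acly ranked 72 of 10814 detected genes from the top. In fructose medium it was 4.61-fold lower in KO than in WT, rank 10 of 10688 from the bottom, and in control medium 1.11-fold lower.

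Acss2 encodes the cytosolic acetyl-CoA synthetase, which makes acetyl-CoA from acetate. Its log2 level was 7.64 in KO fructose and 7.33 in KO control, against 7.93 in WT fructose and 7.02 in WT control. Both fructose arrays were above both control arrays, as they were for Fasn and Mid1ip1. With fructose it was 1.24-fold higher in KO and 1.89-fold higher in WT, and its KO difference was the highest of the 10 gene averages, below the 1.46-fold of the brightest Mid1ip1 probe set. In control medium Acss2 was 1.25-fold higher in KO than in WT, rank 413 of 10720 from the top, and in fructose medium 1.23-fold lower.

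Acaca and Acacb encode the acetyl-CoA carboxylases, the cytosolic ACC1 that feeds fatty acid synthesis and the mitochondria-bound ACC2 whose malonyl-CoA restrains fatty acid entry into mitochondria. Acaca had log2 levels of 6.17 in KO fructose and 6.37 in KO control, against 8.16 in WT fructose and 6.34 in WT control. As for Acly, only the WT fructose array stood apart. The fructose difference was -0.20 in KO and 1.82 in WT, and the genotype difference was 3.98-fold lower in KO in fructose medium and 0.03 (log2) in control medium.

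Acacb had log2 levels of 5.10 in KO fructose and 4.93 in KO control, against 5.62 in WT fructose and 5.26 in WT control. These lie close to the background level of 4.764. Acacb was 1.12-fold higher with fructose in KO and 1.28-fold higher in WT, and KO was 1.44-fold lower than WT in fructose medium and 1.25-fold lower in control medium. The range of the 4 levels was 0.68 (log2) for Acacb and 1.99 for Acaca.

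Fasn encodes fatty acid synthase, the multifunctional enzyme that builds palmitate. Its log2 level was 7.45 in KO fructose and 7.16 in KO control, against 9.13 in WT fructose and 7.37 in WT control. WT fructose was again the only array far from the others, and KO fructose lay just above WT control. Fructose minus control was 0.29 in KO and 1.76 in WT. In fructose medium Fasn was 3.21-fold lower in KO, rank 19 of 10688 from the bottom, and in control medium 1.15-fold lower.

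**Figure D2:**
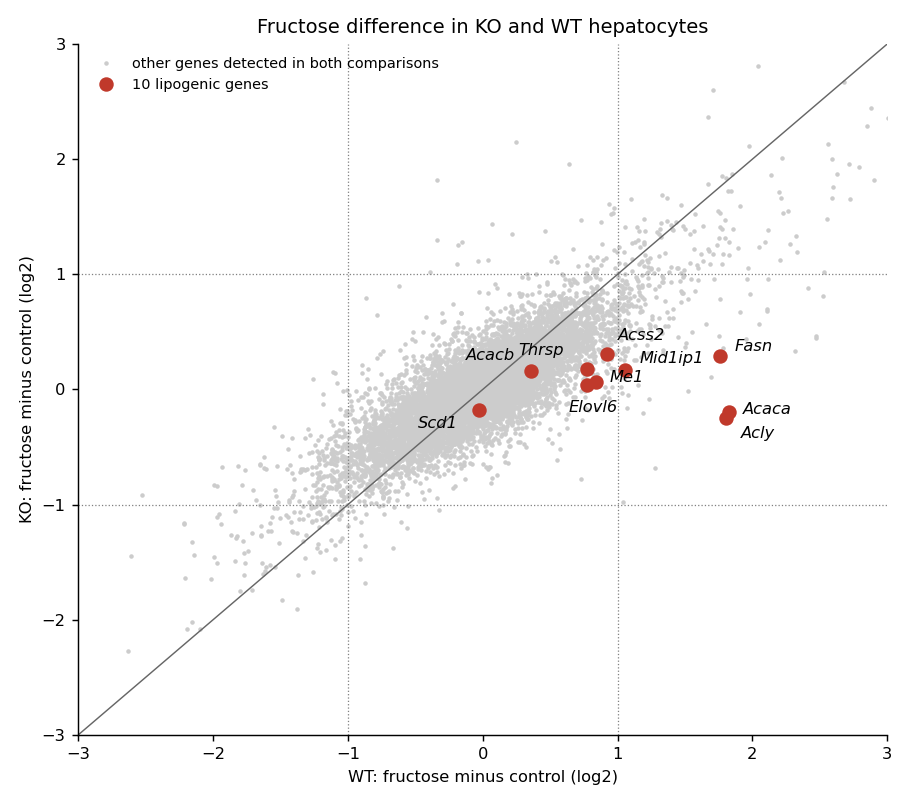
Fructose minus control as log2 differences in WT (horizontal axis) and in KO (vertical axis), with the 10 lipogenic genes in red among the 10516 genes detected in both comparisons in grey; 21 genes lie outside the plotted range of 3 log2 units either way, the diagonal marks equal differences and dotted lines mark 2-fold. All 10 lie below the diagonal, Acly, Acaca and Fasn farthest to the right with KO values of -0.25, -0.20 and 0.29.

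Promoter windows of the 4 genes that were at least 2-fold higher with fructose in WT are shown here. The letters searched for sugar- and insulin-responsive factors, CACGTG and TCACNCCAC, matched none of these windows, so the capitals mark other elements. RefSeq windows of assembly GRCm38.p6 cover 250 bases before to 50 after the annotated start and matched 9 of the 10 genes, in 10 windows. Capitals mark CCAAT, the box bound by NF-Y, and GGGCGG, the GC box bound by Sp1-type factors, each searched on both strands, so that a match on the opposite strand reads ATTGG or CCGCCC. Acly lies at chr11:100527951-100528250 (minus strand), Acaca at chr11:84195188-84195487 (plus strand), Fasn at chr11:120824498-120824797 (minus strand) and Mid1ip1 at chrX:10717115-10717414 (plus strand).
Acly: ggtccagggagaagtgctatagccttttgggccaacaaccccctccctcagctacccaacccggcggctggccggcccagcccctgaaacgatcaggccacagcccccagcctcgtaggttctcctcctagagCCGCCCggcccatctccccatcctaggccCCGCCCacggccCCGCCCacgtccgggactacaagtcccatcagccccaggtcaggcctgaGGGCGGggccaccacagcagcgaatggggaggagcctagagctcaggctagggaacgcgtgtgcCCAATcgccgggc
Acaca: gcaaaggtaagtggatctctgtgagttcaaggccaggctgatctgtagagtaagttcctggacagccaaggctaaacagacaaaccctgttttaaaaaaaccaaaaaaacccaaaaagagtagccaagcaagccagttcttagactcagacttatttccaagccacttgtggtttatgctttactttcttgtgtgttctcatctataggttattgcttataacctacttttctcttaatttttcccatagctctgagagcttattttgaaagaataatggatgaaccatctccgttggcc
Fasn: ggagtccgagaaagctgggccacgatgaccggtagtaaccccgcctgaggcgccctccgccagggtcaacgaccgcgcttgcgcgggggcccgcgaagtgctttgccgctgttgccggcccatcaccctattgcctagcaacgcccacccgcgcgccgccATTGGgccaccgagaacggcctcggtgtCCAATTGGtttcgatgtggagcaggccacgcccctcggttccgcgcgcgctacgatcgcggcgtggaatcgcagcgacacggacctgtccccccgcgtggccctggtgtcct
Mid1ip1: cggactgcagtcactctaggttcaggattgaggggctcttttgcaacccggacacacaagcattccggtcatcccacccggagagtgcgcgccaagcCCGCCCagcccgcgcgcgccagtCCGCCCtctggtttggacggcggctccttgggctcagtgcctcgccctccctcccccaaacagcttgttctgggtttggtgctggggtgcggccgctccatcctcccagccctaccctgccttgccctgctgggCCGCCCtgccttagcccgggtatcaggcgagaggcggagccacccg

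The Fasn window held 3 CCAAT matches, with first bases at positions -90, -62 and -59 relative to the start, of which the last 2 overlap on opposite strands. The Acly window held 4 GGGCGG matches and 1 CCAAT, the Mid1ip1 window 3 GGGCGG matches, and the Acaca window neither motif. Acaca had a single window, at 1 annotated start, and whether its main promoter lies there was not tested. CCAAT was present in 6 of the 10 windows of lipogenic genes and in 37.4% of all 32851 promoter windows, and GGGCGG in 4 of 10 and 35.7%. The E-box core CACGTG, which a ChREBP-MLX pair can bind, was found in 0 of the 10 windows and in 7.15% of all windows. A pair of perfect CACGTG boxes 5 bases apart was in none of the 32851 windows; carbohydrate response elements usually have less perfect half-sites, and these were not searched. The sterol element TCACNCCAC was in 0 of 10 windows and 1.24% of all. A match is a description of letters, and the lack of one says only that these letters are not in this window.

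Elovl6 and Scd1 act on the palmitate that fatty acid synthase releases. Elovl6 encodes the elongase that lengthens it to stearate, and had log2 levels of 7.91 in KO fructose and 7.87 in KO control, against 9.01 in WT fructose and 8.24 in WT control. Both KO arrays lay below both WT arrays. Elovl6 was 1.03-fold higher with fructose in KO and 1.71-fold higher in WT, and KO was 2.15-fold lower in fructose medium and 1.29-fold lower in control medium.

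Scd1 encodes stearoyl-CoA desaturase, which makes oleate. Its log2 level was 11.22 in KO fructose and 11.40 in KO control, against 11.65 in WT fructose and 11.67 in WT control. Scd1 had the smallest range of the 10 genes, 0.45 (log2). The fructose difference was -0.17 in KO and -0.03 in WT, and the WT value turned to between 0.02 and 0.04 under 3 other scalings of the arrays. KO was 1.34-fold lower than WT in fructose medium and 1.21-fold lower in control medium.

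Me1 encodes the cytosolic malic enzyme, which yields NADPH for fatty acid synthesis. It had log2 levels of 9.02 in KO fructose and 8.96 in KO control, against 10.43 in WT fructose and 9.59 in WT control. Both KO levels were below both WT levels, also without fructose. With fructose Me1 was 1.05-fold higher in KO and 1.79-fold higher in WT. In KO it was 2.66-fold lower than in WT in fructose medium and 1.55-fold lower in control medium, where it ranked 98 of 10720 from the bottom, the lowest rank of the 10 genes.

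Thrsp and Mid1ip1 encode a pair of related small proteins, Spot 14 and MIG12, that promote lipogenesis; MIG12 favours the polymerised, active form of acetyl-CoA carboxylase. Thrsp had log2 levels of 7.70 in KO fructose and 7.52 in KO control, against 8.87 in WT fructose and 8.10 in WT control. As for Me1, both KO arrays lay below both WT arrays. Thrsp was 1.13-fold higher with fructose in KO and 1.71-fold higher in WT, and KO was 2.25-fold lower in fructose medium and 1.49-fold lower in control medium.

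Mid1ip1 was measured by 3 probe sets that disagreed. Averaged, they gave log2 levels of 5.74 in KO fructose and 5.57 in KO control, against 6.42 in WT fructose and 5.37 in WT control, a fructose difference of 1.12-fold in KO and 2.08-fold in WT. The brightest probe set read 7.39 in KO fructose and 6.84 in KO control, against 8.84 in WT fructose and 6.95 in WT control. By that probe set Mid1ip1 was 1.46-fold higher with fructose in KO and 3.72-fold higher in WT, close to Acly, Acaca and Fasn in WT. The second read 4.88 in KO fructose and 4.89 in KO control, against 5.59 in WT fructose and 4.22 in WT control, the last below background. The third stayed between 4.84 and 4.97 on the 4 arrays, just above background, so the average shows a smaller difference than the brightest probe set.

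**Figure D3:**
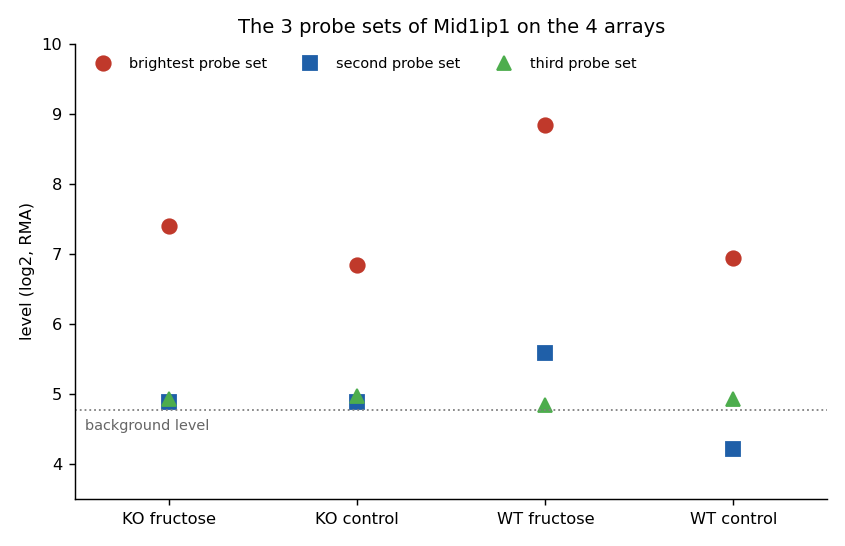
Log2 level of the 3 probe sets of Mid1ip1 (vertical axis) on the 4 arrays (horizontal axis), 1 point per probe set and array, with the background level of 4.764 dotted. The brightest reads 8.84 on WT fructose and at most 7.39 elsewhere, while the third stays between 4.84 and 4.97.

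Between genotypes in fructose medium, all 10 genes were lower in KO, 6 of them at least 2-fold: Acly, Acaca, Fasn, Me1, Thrsp and Elovl6. Among all detected genes 0.739% were at least 2-fold lower in this comparison and 0.543% higher. The median of the 10 was -1.14, against 0.01 over all genes, of which 52.5% were above 0. Mid1ip1 was 1.61-fold lower by its average and 2.73-fold lower by its brightest probe set. This comparison and the fructose comparison in WT both use the WT fructose array, so a high reading on that array enters both.

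In control medium the genotypes differed less. KO was lower than WT for 7 of the 10 genes, and 0 were at least 2-fold lower or higher, where 0.196% of all detected genes were lower and 0.0373% higher by that much. The median was -0.24, against -0.01 over all genes, of which 48.0% were above 0. Me1 and Thrsp had the largest differences, -0.64 and -0.58, whereas Acaca (0.03), Mid1ip1 (0.20) and Acss2 (0.32) were above 0. For Mid1ip1 the sign was turned by the brightest probe set alone (-0.10).

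**Figure D4:**
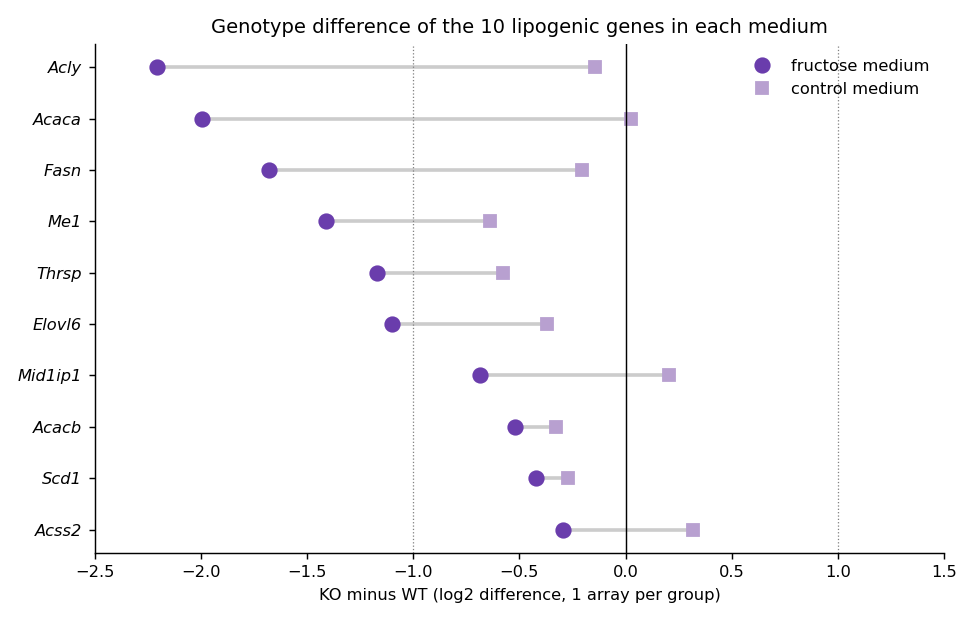
KO minus WT as a log2 difference (horizontal axis) for each of the 10 lipogenic genes (rows), with circles for fructose medium and squares for control medium, 1 array per group; dotted lines mark 2-fold. All 10 circles are below 0, from -2.20 for Acly to -0.29 for Acss2, and the squares lie between -0.64 and 0.32.

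Most detected macrophage and endothelial markers were also lower in KO. Of the detected macrophage markers, 9 of 10 were below 0 in fructose medium (median -0.62) and 8 of 9 in control medium (median -0.69). In fructose medium Adgre1 passed background on WT fructose alone, so the filter fixed its sign and it adds nothing to that count. The summed linear level of all 13 measured was 2870.2 in KO fructose and 2737 in KO control, against 2531 in WT fructose and 2926 in WT control. Cd68, the brightest, dominates this sum and was higher in KO, by 0.44 in fructose medium and 0.08 in control medium. All 7 detected endothelial markers were below 0 in both media (medians -0.35 and -0.46), with a summed linear level of 649 in KO fructose and 679.6 in KO control, against 867 in WT fructose and 947 in WT control. Of 9 measured stellate cell markers, 2 of 3 detected were below 0 in fructose medium (median -0.08; Reln 0.36) and 2 of 2 in control medium (median -0.26). Of 5 measured cholangiocyte markers, Sox9 alone was detected, at -0.09 in fructose medium and -0.44 in control medium. No marker of these lists can have a level of 0 on this scale, as distinct from a difference of 0. Among macrophage and endothelial markers, Vsig4, Cd163, C1qc, Stab2, Clec4g and Tek were below background on all arrays. The part of other cells in the lipogenic differences was not tested, and in such bulk RNA fewer cells of a type and less RNA per cell cannot be told apart.

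The fructose difference itself was lower in KO than in WT for all 10 genes, with a median of -0.75 for KO minus WT. Over all genes the median was 0.03, and 55.0% were above 0. It was lower by at least 2-fold for 3 genes, Acly (-2.06, rank 8 of 11050 from the bottom), Acaca (-2.02, rank 10) and Fasn (-1.47, rank 24), where 0.588% of all genes reached that size in this direction and 0.443% in the other. Mid1ip1 (-0.89, or -1.35 by its brightest probe set, which makes 4 genes at 2-fold), Me1 (-0.77), Elovl6 (-0.73), Acss2 (-0.61) and Thrsp (-0.59) followed. Acacb (-0.19) and Scd1 (-0.15) had the smallest values. No test of this difference was possible with 1 array per group. The difference of effects also uses the WT fructose array, so a high reading on that array enters it too.

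Other genes of the pathway were set beside these 10 in lists written from textbook knowledge, with earlier results of these data known. For every list count at 2-fold with fructose, the shares of all detected genes were 1.68% higher and 1.18% lower in KO. In WT they were 3.1% higher and 3.01% lower. Of 9 detected genes of acetyl-CoA and malonyl-CoA supply, 0 were at least 2-fold higher with fructose in KO and 1 in WT, with 0 lower in either and medians of -0.12 in KO and -0.15 in WT. That gene was Pdhb, a subunit of pyruvate dehydrogenase, with log2 levels of 9.22 in KO fructose and 8.89 in KO control, against 11.31 in WT fructose and 9.00 in WT control. Pdha1 and Dlat, which encode other subunits of the same complex, differed by -0.15 and -0.38 in WT. Slc25a1, the mitochondrial citrate carrier that feeds ATP-citrate lyase, differed by -0.12 in KO and 0.08 in WT. Hlcs, which attaches biotin to the carboxylases, differed by -0.74 in KO and -0.66 in WT, and Mlycd, which degrades malonyl-CoA, by -0.28 in KO and -0.45 in WT.

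**Figure D5:**
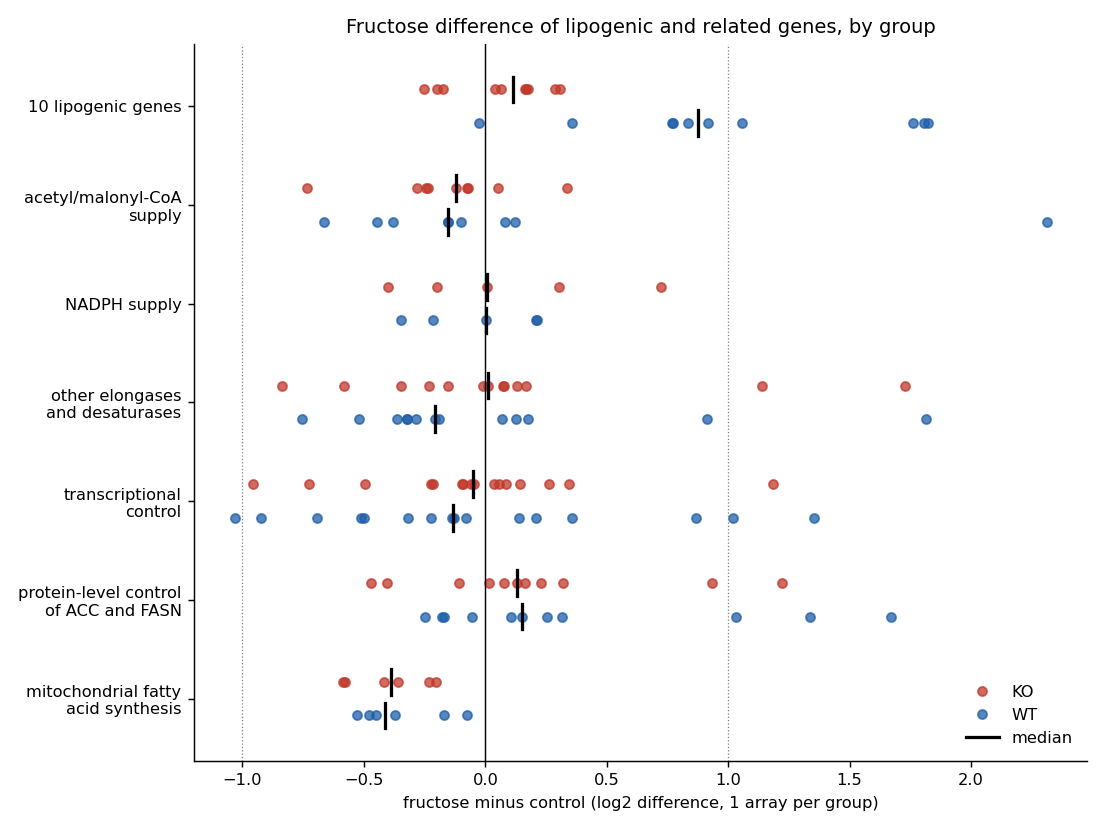
Fructose minus control (log2 difference, horizontal axis) for detected genes of 7 groups (rows), with KO in red above WT in blue, 1 point per gene, black bars at the medians and dotted lines at 2-fold. The 10 lipogenic genes have medians of 0.11 in KO and 0.88 in WT, and the medians of the other groups lie between -0.41 and 0.15.

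None of the 5 detected genes of NADPH supply other than Me1 reached 2-fold with fructose in either genotype. G6pdx, on the same list, had no value, so the list covers this supply only in part. Idh1, cytosolic isocitrate dehydrogenase, differed by 0.30 in KO and 0.21 in WT, and Nnt, the mitochondrial transhydrogenase, by -0.40 in KO and -0.35 in WT. Me2, the mitochondrial malic enzyme, was at least 1.23-fold higher with fructose in KO and at least 1.09-fold in WT, with both control arrays below background. The 2 detected long-chain acyl-CoA synthetases, Acsl4 (0.20 in KO, 0.14 in WT) and Acsl5 (-0.22 in KO, -0.02 in WT), differed little. Acsl1 and Acsl3 had no value.

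Among 13 other detected elongase and desaturase genes, 2 were at least 2-fold higher with fructose in KO and 1 in WT, with 0 lower. Elovl3, an elongase of very long saturated chains, was 3.31-fold higher in KO and 3.52-fold higher in WT. Elovl2, an elongase of polyunsaturated chains, was 2.21-fold higher in KO and 1.88-fold higher in WT. Unlike Elovl6, whose fructose difference was 0.04 in KO and 0.77 in WT, both had differences of like size in the 2 genotypes. Fads3, of the fatty acid desaturase family, differed by -0.84 in KO and -0.21 in WT.

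Of 16 detected genes of transcriptional control, 1 was at least 2-fold higher with fructose in KO and 2 in WT, and 0 were lower in KO and 1 in WT. Srebf1 had log2 levels of 7.37 in KO fructose and 7.10 in KO control, against 8.38 in WT fructose and 7.36 in WT control. WT fructose was the highest array here too, with a fructose difference of 0.26 in KO and 1.02 in WT. Insig1, which retains SREBP precursors in the endoplasmic reticulum, was 2.27-fold higher with fructose in KO and 2.55-fold in WT. Pparg, a nuclear receptor of lipid storage, was 1.94-fold lower in KO and 2.04-fold lower in WT. Nr1h3, the liver X receptor alpha gene, differed by 0.14 in KO and -0.32 in WT.

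Of 11 detected genes that act on acetyl-CoA carboxylase or fatty acid synthase protein, 1 was at least 2-fold higher with fructose in KO and 3 in WT, with 0 lower. Prkab2, a regulatory subunit of AMP-activated protein kinase, which phosphorylates and inhibits both carboxylases, was 2.33-fold higher in KO and 3.19-fold in WT. Its catalytic subunit gene Prkaa2 was 1.25-fold higher in KO and 2.05-fold in WT. Trib3, a pseudokinase that helps target acetyl-CoA carboxylase for degradation in adipose tissue, was 1.91-fold higher in KO and 2.52-fold in WT. Mid1, the partner for which Mid1ip1 is named, had log2 levels of 4.57 in KO fructose and 5.04 in KO control, against 4.69 in WT fructose and 4.86 in WT control, around background.

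The genes whose pattern over the 4 arrays was most like the lipogenic set were found by centring each gene on its own mean and taking the Euclidean distance in log2 units. Among 10127 other detected genes, the nearest to the mean of the 10 were Glul, glutamine synthetase (0.079), Gpd2, the mitochondrial glycerol-3-phosphate dehydrogenase (0.134), St6galnac4, a sialyltransferase (0.144), Srebf1 (0.149) and Slc25a44, a mitochondrial carrier (0.172). St6galnac4 was above background only on WT fructose. Of the 10 genes themselves, Elovl6 lay nearest to their mean (0.178) and Scd1 farthest (0.816). Fasn, Acaca and Acly lay at 0.620, 0.679 and 0.786, so likeness to the mean is not likeness to each of the 10 genes.

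Acly had the largest difference of fructose effects, and Acaca (0.195) and Fasn (0.447) were close to it. The nearest other genes to Acly were Aacs, the cytosolic acetoacetyl-CoA synthetase (0.438), Tkfc, triokinase (0.489), Fes, a tyrosine kinase (0.514), Pdhb (0.553) and Furin, a proprotein convertase (0.592). Aacs had log2 levels of 6.60 in KO fructose and 6.62 in KO control, against 8.19 in WT fructose and 6.67 in WT control. With 4 arrays, such likeness describes 4 values and says nothing of shared control.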

How the data were processed

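Expression was measured on 4 one-colour whole-transcript arrays, 1 per group, from 400 ng of total RNA each. The authors deposited 1 log2 level for each probe set, on which RMA (robust multi-array average) had been run, with R 3.4.0 also named, per the submitters' processing notes. RMA makes the arrays' distributions alike, so a shift shared by all genes cannot be seen. Annotation version and genome build: not given in the sources used here.

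Of 41345 probe sets, 23521 had 1 gene symbol, updated through RefSeq (GRCm38.p6, names only), and were averaged per gene. Background was the 95th percentile of 1105 olfactory receptor genes, and genes above it on at least 1 array compared were called detected. Differences of log2 levels were taken for 5 comparisons with Python 3.11.15 and pandas 2.3.3, and counts at 2-fold stand in for tests. The counting was tested on simulated data. Precision is limited by having 4 arrays.

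All 10 genes were named, with the 3 most different members of each pathway list, Srebf1, Mlxipl, Nr1h3, Slc25a1 and Mid1, and the 5 genes nearest in pattern; Pdha1, Dlat and cell type markers were named after their values were seen. Genes and lists were chosen with earlier results of these data known. Alternatives were other scalings, filters, thresholds, summaries and probe set choices.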

Additional observations from a re-analysis of the deposited data

Results flagged for a closer look

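Acly and Acaca had fructose differences of opposite sign in the 2 genotypes. Acly differed by -0.25 in KO and 1.81 in WT, a difference of effects of -2.06 (log2). Acaca differed by -0.20 in KO and 1.82 in WT, a difference of effects of -2.02. The median absolute difference over all detected genes was 0.22 in KO, so the KO values of both genes are near the size that a typical gene shows between those arrays. The difference between genotypes was not tested, since each group had 1 array.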

How the results depend on the processing

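Every direction and 2-fold call of the 10 genes was kept under the other scalings, filters and values raised to background, except the sign of the Scd1 difference in WT, which turned from -0.03 to between 0.02 and 0.04 under 3 scalings. With the brightest probe set in place of the average, the Mid1ip1 values moved to 1.90 (log2) for fructose in WT, -1.45 for KO against WT in fructose medium and -1.35 for the difference of effects. The count of genes at least 2-fold lower in KO in fructose medium was then 7 in place of 6, and that of genes with a fructose difference at least 2-fold lower in KO than in WT 4 in place of 3. The mean in place of the median gave 1.01 for fructose in WT. At 1.5-fold, 8 genes were higher with fructose in WT, 1 was lower in KO in control medium, and 8 had a lower fructose difference in KO than in WT. At 3-fold, 3 were lower in KO in fructose medium. The shares of all detected genes past 1.5-fold and 3-fold were not counted, so these counts cannot be set against them. Acacb and, in 2 comparisons, Mid1ip1 were dropped by the stricter filter. No paired analysis was possible because each group had 1 array with no replicate number in the labels, and no array could be left out. Signal near background limits Acacb and the dimmer Mid1ip1 probe sets.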

Other observations

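Fatty acids are also made inside mitochondria, by a separate set of enzymes that supplies lipoic acid. Of its 6 detected genes, 6 were below 0 with fructose in KO and 6 in WT, with medians of -0.39 in KO and -0.41 in WT and none at 2-fold. Oxsm was detected on the control arrays alone, so the filter fixed its sign and it adds nothing to these counts. The medians include it. Among all detected genes 49.4% were above 0 in KO and 47.5% in WT, with medians of -0.0041 in KO and -0.03 in WT. Cbr4, a reductase of this pathway, differed by -0.58 in KO and -0.53 in WT, and Acsf3, which makes mitochondrial malonyl-CoA, by -0.42 in KO and -0.48 in WT. Oxsm, the ketoacyl synthase, was at least 1.31-fold lower with fructose in KO and at least 1.03-fold lower in WT, with both fructose arrays below background. Between genotypes the list differed little, with medians of 0.11 in fructose and 0.11 in control medium for KO minus WT.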
